A study of Mus musculus with 8 samples.

Results

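The 31 genes described here encode proteins of the lysosome and 3 of the transcription factors that control it, out of 21911 protein-coding genes. They were taken as a fixed list of 7 membrane proteins, 8 glycosidases, 2 sulfatases, 5 genes of lipid handling, 4 of protein turnover, 2 subunits of the proton pump and 3 regulators. The list was drawn up by function, with earlier results of these data known. ATAC-seq, in which the Tn5 transposase cuts the DNA that is open in nuclei, was performed on cerebral cortex of 4 sham and 4 BCAS mice, with 1 library per mouse. BCAS is bilateral carotid artery stenosis. Male C57BL/6 mice were operated at 11 weeks of age, and tissue was taken 3 weeks later, at 14 weeks. BCAS mice received a microcoil of 0.16 mm inner diameter around the right and one of 0.18 mm around the left common carotid artery, while in sham mice the arteries were exposed without a coil. The labels give the tissue as cortex of the right side, the side of the narrower coil, whereas the sample table of the study describes cortex without a side, so the side is uncertain. No genetic change was made in either group, and the libraries are of whole tissue, so that more cells of a type and more open DNA per cell cannot be told apart.

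The lysosome is the acidic compartment in which cells break down proteins, lipids and sugar chains. Its acid is pumped in by the V-ATPase, its hydrolases are sorted to it from the Golgi, and loss of many of these genes causes a storage disease of the brain. TFEB and its relatives TFE3 and MITF are transcription factors that enter the nucleus when lysosomes are stressed and bind the CLEAR element, a short palindrome around CACGTG found in promoters of lysosomal genes. In the brain, microglia, the resident phagocytes, are rich in lysosomes.

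The unit of measurement was the length of DNA, in bp, that the peaks of a library covered in a gene locus, that is, the gene body extended by 3 kb at both ends. It was scaled to the library's total covered length, and all lengths of loci below are scaled bp. The lists held 107391 to 144988 peaks in sham and 119565 to 160720 in BCAS libraries, and peaks covered 44.5 to 60.8 Mb and 48.9 to 66.3 Mb. BCAS 1 had the most peaks and sham 1 the fewest. Reads are not counted in the lists, and the number of reads under a given peak is therefore not known. Differences were tested with limma on log2(scaled bp + 200), with Benjamini-Hochberg adjustment over 17012 tested genes, among them all 31.

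The promoters of these genes were open in both groups. A peak lay within 1 kb of a transcription start site (TSS) in all 8 libraries at 30 of the 31 genes (96.8%), against 61.6% of all protein-coding genes. The exception was Atp6v0d2, which encodes a subunit of the V-ATPase membrane sector known from osteoclasts and macrophages and had a promoter peak in 0 of 8 libraries. The letters of the CLEAR element were searched as GTCACGTG and TCACGTGA, which overlap by 7 letters, on both strands of the 250 bases before each RefSeq TSS. Of 28 genes with an entry in the RefSeq promoter table (GRCm38.p6), 7 held one of them (25.0%), against 2.31% of 27025 genes in that table. The element is known from promoters of lysosomal genes, so the higher share is not a finding of these data. Npc1, Asah1 and Atp6v0d2 had no entry. These sites are shown because they are the sequence through which TFEB is known to reach lysosomal promoters. Each is printed 5' to 3' on the strand of the gene, with the CLEAR letters in capitals and the distance from the first capital to the TSS.
Lamp1, 28 bases upstream, chr8:13159122-13159151, plus strand: atgccgactggCACGTGACcacatcacgtg
Mcoln1, 73 bases upstream, chr8:3500435-3500464, plus strand: gggtcgcgcttGTCACGTGttcagttcagg
Mcoln1, 46 bases upstream, chr8:3500462-3500491, plus strand: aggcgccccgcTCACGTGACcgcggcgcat
Cln3, 123 bases upstream, chr7:126583340-126583369, minus strand: cacgggtactGTCACGTGACccccaacctg
Gla, 228 bases upstream, chrX:134601215-134601244, minus strand: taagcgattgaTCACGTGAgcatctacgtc
Gla, 196 bases upstream, chrX:134601183-134601212, minus strand: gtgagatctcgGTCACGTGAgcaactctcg
Glb1, 50 bases upstream, chr9:114401017-114401046, plus strand: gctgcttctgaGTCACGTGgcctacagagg
Sgsh, 29 bases upstream, chr11:119355521-119355550, minus strand: ggcctgccgtgCACGTGACcgtggggagcg
Atp6v1a, 132 bases upstream, chr16:44139373-44139402, minus strand: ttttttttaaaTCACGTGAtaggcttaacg

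Of these 9 sites, 8 lay inside a peak in all 8 libraries and the site of Cln3 in 7. A peak over the letters is a description and not a measurement of TFEB binding. The 7 genes that carry them are Lamp1, Mcoln1, Cln3, Gla, Glb1, Sgsh and Atp6v1a.

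In the BCAS cortex, peak coverage rose at 6 of the 31 loci (19.4%) and fell at 0, whereas it rose at 3.15% and fell at 0.376% of all tested loci. Before adjustment (limma, p under 0.05), 9 of the 31 were higher and 0 lower, compared with 1803 (10.6%) and 748 (4.40%) of the tested genes. The 6 loci were those of Npc1 and Npc2, which hand cholesterol out of the lysosome, Ppt1, a thioesterase that removes palmitate from proteins, Grn, which encodes progranulin, the V-ATPase subunit gene Atp6v0d2, and Tfeb itself. Npc2, Ppt1, Grn and Tfeb have an entry in the promoter table. Of these 4, 0 hold the CLEAR letters in it, against 7 of the 28 members with an entry. With 4 genes a count of 0 has little weight. The log2 difference was positive at 25 members (80.6%), against 50.4% of the tested genes, with a median of 0.16 over the 31 and 0.0014 over all. Every BCAS library lay above every sham library at 8 of the 31 loci (25.8%), against 6.04% of tested loci, and the reverse was seen at 0 of the 31, against 2.47%. Of the 6 loci that rose, 5 reach a neighboring coding gene (Rmc1 at Npc1, Isca2 at Npc2, Cap1 at Ppt1, Fam171a2 at Grn and Pgc at Tfeb), whose coverage cannot be told apart where they overlap. The 31 loci had a median length of 25511 bp, and all tested loci one of 29852 bp.

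**Figure D1:**
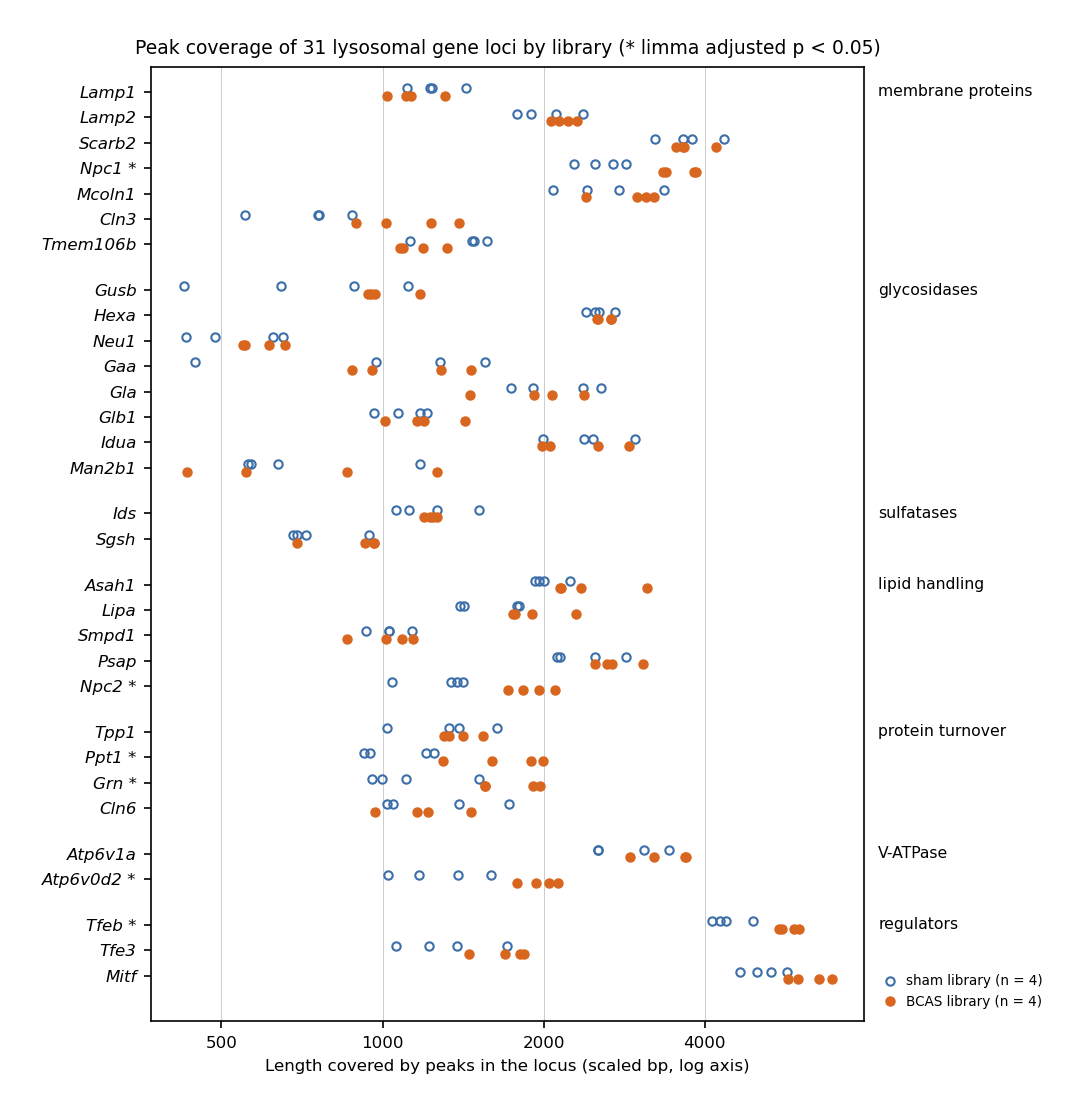
Length covered by peaks (horizontal log axis, scaled bp) at each of the 31 loci, grouped by role. Open circles are the 4 sham and filled circles the 4 BCAS libraries. At the 6 loci with an asterisk (limma adjusted p under 0.05) all filled circles lie to the right of the open ones, as at Tfeb, with 4121 to 4929 in sham and 5503 to 5995 in BCAS.

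Among the membrane proteins, Npc1 rose. NPC1 is the channel-like protein of the lysosomal membrane through which cholesterol leaves, and its loss causes Niemann-Pick disease type C. Its locus held 2490, 2851, 2281 and 2695 bp in sham 1 to 4 and 3342, 3382, 3820 and 3844 bp in BCAS 1 to 4. The groups did not overlap, and the mean rose from 2579 ± 248 to 3597 ± 272 bp (SD, n = 4; log2 difference 0.45, SE 0.10, limma adjusted p = 0.0217). Cln3, a membrane protein lost in juvenile neuronal ceroid lipofuscinosis, had 877, 756, 761 and 554 bp in sham and 892, 1231, 1392 and 1015 bp in BCAS. The groups were separated only by the small gap between BCAS 1 and sham 1, and the difference did not pass (0.50, SE 0.16, adjusted p = 0.0910).

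The other membrane proteins had overlapping groups. Lamp1, one of the most abundant proteins of the lysosomal membrane, ranged from 1112 to 1429 bp in sham and from 1021 to 1306 bp in BCAS. Its relative Lamp2, which also takes part in autophagy, ranged from 1786 to 2373 and from 2068 to 2307 bp. Scarb2, the carrier that brings glucocerebrosidase to the lysosome, ranged from 3222 to 4349 and from 3528 to 4204 bp. The calcium channel Mcoln1 ranged from 2081 to 3349 and from 2396 to 3220 bp. Tmem106b, a gene linked to the risk of frontotemporal dementia, was the member of this group with the lower mean in BCAS by the largest ratio, with 1413 ± 196 bp in sham and 1169 ± 110 bp in BCAS, and its groups overlapped too.

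No glycosidase and no sulfatase passed the test. Gusb, beta-glucuronidase, had the largest absolute t of these 10 genes, with 883, 425, 647 and 1118 bp in sham and 940, 968, 1173 and 952 bp in BCAS (log2 difference 0.37, SE 0.19, adjusted p = 0.389). Its lowest BCAS library lay below sham 4. Hexa, an enzyme gene of ganglioside breakdown, was nearly level, with 2537 ± 136 bp in sham and 2595 ± 85.8 bp in BCAS. The sialidase Neu1 had 549 ± 108 and 593 ± 51.8 bp, and Gaa, the acid glucosidase lost in Pompe disease, had 1064 ± 475 and 1145 ± 275 bp. Gla, the galactosidase lost in Fabry disease, had 2145 ± 386 and 1955 ± 382 bp, and the galactosidase Glb1 had 1104 ± 112 and 1198 ± 171 bp. Idua, the iduronidase of glycosaminoglycan breakdown, had 2454 ± 398 and 2364 ± 424 bp, and the mannosidase Man2b1 had 735 ± 294 and 778 ± 371 bp. Of the sulfatases, Ids had 1240 ± 201 bp in sham and 1231 ± 29.8 bp in BCAS, and Sgsh had 759 ± 124 and 886 ± 130 bp. In all 10 genes the groups overlapped.

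Of the genes of lipid handling, Npc2 rose. NPC2 is the soluble partner that passes cholesterol to NPC1. Its locus held 1415, 1343, 1040 and 1377 bp in sham and 1832, 1956, 2102 and 1717 bp in BCAS, without overlap (1294 ± 172 and 1902 ± 165 bp; log2 difference 0.50, SE 0.12, limma adjusted p = 0.0308). Lipa, the acid lipase, had 1600 ± 222 and 1929 ± 255 bp and Asah1, acid ceramidase, 2031 ± 143 and 2440 ± 461 bp. The highest Asah1 value was that of BCAS 3, with 3118 bp. Psap, the precursor of the saposins, had 2401 ± 344 and 2718 ± 244 bp, and the sphingomyelinase Smpd1 had 1031 ± 84.5 and 1025 ± 121 bp. The groups of these 4 genes overlapped and none passed.

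Of the genes of protein turnover, Ppt1 and Grn rose. Ppt1, whose loss causes infantile neuronal ceroid lipofuscinosis, had 1206, 1249, 925 and 946 bp in sham and 1299, 1890, 1994 and 1601 bp in BCAS. BCAS 1 lay just above sham 2, and the mean rose from 1082 ± 170 to 1696 ± 313 bp (log2 difference 0.56, SE 0.14, adjusted p = 0.0373). Grn encodes progranulin, a secreted protein that is cut into granulins in the lysosome and whose loss leads to frontotemporal dementia. Its locus held 1107, 999, 954 and 1512 bp in sham and 1555, 1970, 1910 and 1556 bp in BCAS (1143 ± 254 and 1748 ± 223 bp; 0.55, SE 0.14, adjusted p = 0.0390). Sham 4 came close to the BCAS libraries. The peptidase Tpp1 had 1343 ± 254 and 1397 ± 107 bp and Cln6, a membrane protein of the endoplasmic reticulum that is needed for the export of lysosomal enzymes, 1294 ± 330 and 1203 ± 204 bp, both with overlap.

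Of the V-ATPase subunits, Atp6v0d2 rose and Atp6v1a did not pass. Atp6v0d2 held 1171, 1024, 1594 and 1386 bp in sham and 1781, 2124, 2049 and 1934 bp in BCAS, without overlap (1294 ± 249 and 1972 ± 149 bp; log2 difference 0.55, SE 0.13, adjusted p = 0.0249). Atp6v1a, the catalytic subunit, had 2890 ± 441 and 3364 ± 384 bp, with overlap.

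All 3 regulators had a higher mean in BCAS, and Tfeb passed the test. The Tfeb locus held 4387, 4266, 4121 and 4929 bp in sham and 5573, 5503, 5995 and 5881 bp in BCAS (4426 ± 353 and 5738 ± 237 bp; log2 difference 0.36, SE 0.09, adjusted p = 0.0286). Its groups did not overlap, but the call was lost when any library other than sham 4 was left out. Mitf, which also directs the melanocyte lineage, held 4643, 5000, 5317 and 5690 bp in sham and 6899, 5958, 6532 and 5708 bp in BCAS, where BCAS 4 lay just above sham 4 (0.27, SE 0.09, adjusted p = 0.129). Tfe3 held 1380, 1061, 1223 and 1710 bp in sham and 1450, 1696, 1806 and 1839 bp in BCAS, with overlap (0.31, SE 0.14, adjusted p = 0.282).

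The calls of the 6 genes depended on single libraries and on the settings, although the log2 difference of each was positive without any of them (0.33 to 0.67). With 7 libraries, 5 of the 6 passed without sham 4 (all but Ppt1). Without sham 1, 3 passed (Npc1, Npc2 and Ppt1), as did 3 without BCAS 1 (Npc1, Ppt1 and Atp6v0d2). There were 2 without sham 2 (Npc1 and Ppt1), and 1 without sham 3 (Atp6v0d2), BCAS 2 (Npc1) or BCAS 4 (Npc2). Tfeb and Grn thus passed only when sham 4 was left out (limma adjusted p otherwise up to 0.0910 and 0.126). Without BCAS 3 none passed (0.34 to 0.53, limma adjusted p = 0.0760 to 0.138), while all 6 had an unadjusted p under 0.05. Peaks had a GC content of 50.1 to 51.3% in sham and 50.4 to 51.9% in BCAS libraries, and with it as a covariate none of the 31 passed (0.31 to 0.55 for the 6 genes, adjusted p = 0.0885 to 0.166, with 6 at an unadjusted p under 0.05). Without scaling to the library's total only Npc2 and Grn passed. Within the gene body alone, without the 3 kb at the ends, Npc2 (0.37, limma adjusted p = 0.152) and Grn (0.56, adjusted p = 0.158) did not pass, while Cln3 did (0.74, adjusted p = 0.0382). With lists cut to equal length Npc2 and Grn did not pass either (adjusted p = 0.0634 and 0.0691).

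Promoters were also tested alone. In windows of 1 kb on each side of each TSS, coverage rose at 1 and fell at 0 of 30 tested members, against 1.05% and 0.00707% of all genes tested in this way. The 5 called genes with a promoter peak had log2 differences from -0.18 (Ppt1) to 0.10 (Tfeb), and their adjusted p was 0.9996 in each. The promoter peak of Npc1 ranked at the 99.6 to 99.8 percentile and that of Npc2 at the 99.6 to 99.9 percentile by -log10 q. The peak at the Npc1 promoter was 709, 822, 872 and 786 bp wide in sham and 823, 811, 848 and 801 bp in BCAS, unscaled. That of Grn was 466, 476, 481 and 452 bp wide in sham and 494, 436, 467 and 490 bp in BCAS. These widths overlapped between groups. Covered length does not measure the height of a peak, so promoters with equal widths could still differ in reads.

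The member whose promoter windows rose was Cln3 (log2 difference 0.74, SE 0.15, limma adjusted p = 0.0130). The first of its 4 annotated TSSs lies within Apobr, a gene for a lipoprotein receptor of macrophages that runs in the opposite direction, and the region that differed holds the start of Apobr. The coverage of the 2 genes cannot be told apart there. Tfe3 (0.51, SE 0.15), Asah1 (0.35, SE 0.13) and Mitf (0.34, SE 0.12) had an unadjusted p under 0.05 in promoter windows but did not pass (adjusted p = 0.114, 0.436 and 0.358).

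**Figure D2:**
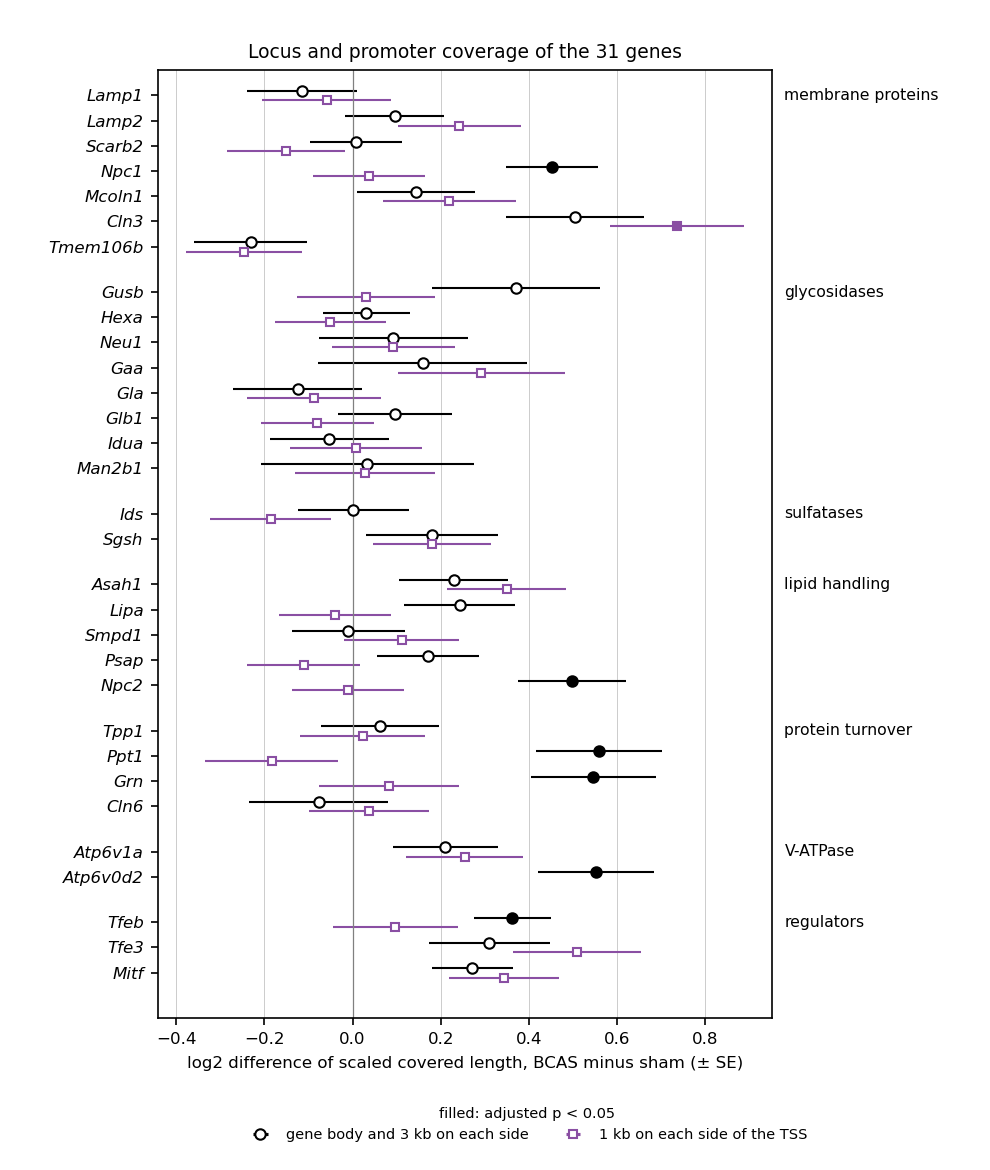
log2 difference of covered length, BCAS minus sham, with SE (n = 4 and 4), at the locus (circles) and in promoter windows (squares) of each gene; filled symbols passed at an adjusted p under 0.05. For Npc1, Npc2, Ppt1, Grn and Tfeb the circle lies at 0.36 to 0.56 and the square at -0.18 to 0.10, and Atp6v0d2 has no square.

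Peaks of all libraries were next merged into regions, of which the 31 loci held 186. A region was called BCAS-only when each of the 4 BCAS libraries and no sham library had a peak in it, and sham-only in the reverse case. In the 31 loci 10 regions were BCAS-only (5.38%) and 0 sham-only, compared with 1.62% and 0.0945% of all 197916 regions. The count of 0 sham-only regions has little weight, since the background share is this small. A further 5 regions had a peak in 3 BCAS and no sham libraries, which made 15 with at least 3 (8.06%, against 3.28% of all regions). More BCAS than sham libraries had a peak in 75 regions (40.3%) and more sham libraries in 23 (12.4%), against 30.4% and 23.2% of all regions. There were 79 regions with a peak in all 8 libraries (42.5%, against 36.2%). The 10 BCAS-only regions lay in 8 of the 31 loci (25.8%), against 9.77% of all tested loci, and these 8 included all 6 that rose. Over all genes, 355 of the 536 loci that rose held such a region (66.2%), so its presence is common where coverage rose. The presence of peaks and the covered length come from the same lists, so one is not independent support for the other.

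**Figure D3:**
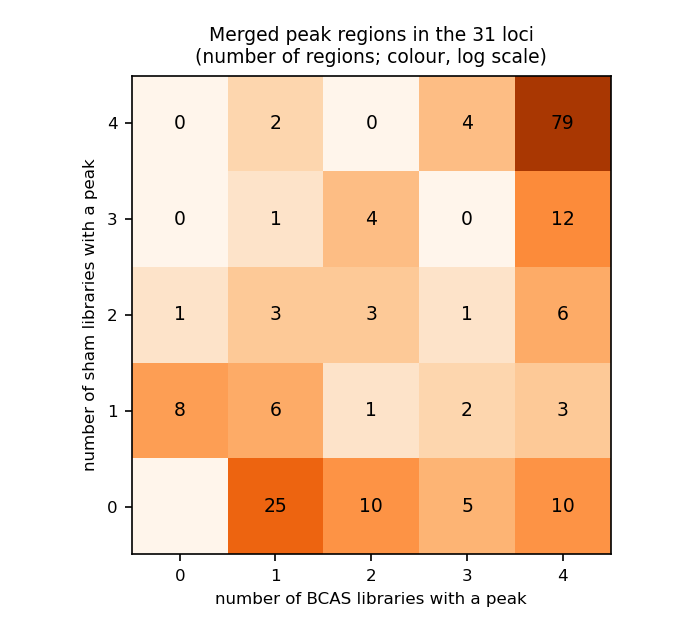
Number of the 186 merged regions in the 31 loci by the number of sham (vertical axis) and BCAS (horizontal axis) libraries with a peak, with color on a log scale. The corner for BCAS-only regions holds 10 and that for sham-only regions 0, while 79 regions were found in all 8 libraries.

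Of the 186 regions, 117 lay in introns, 39 within 1 kb of a TSS, 14 downstream and 6 upstream of the gene, and 5 each in exons and UTRs. Of the 39 promoter regions 31 were found in all 8 libraries, whereas 35 of the 117 intronic regions were. Of the 10 BCAS-only regions 8 were intronic, 1 lay downstream of Npc2 and 1 was that at the start of Apobr.

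**Figure D4:**
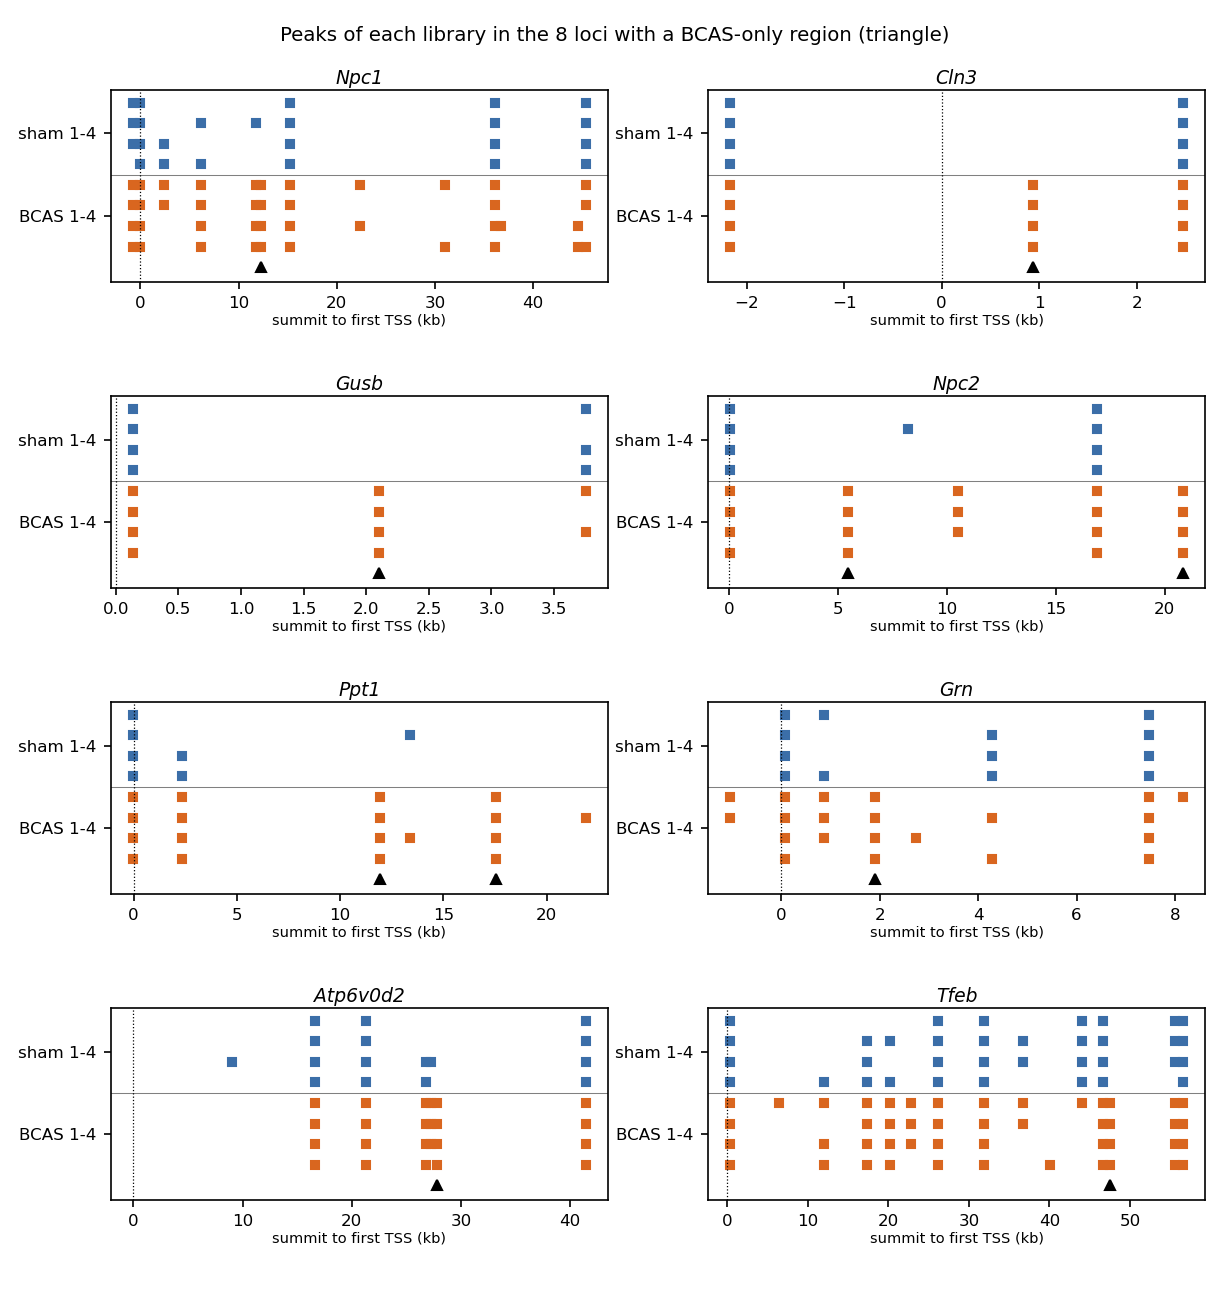
Peaks of each library (rows, sham above the line and BCAS below it) along the 8 loci with a BCAS-only region, by the distance of the region's summit from the first TSS of the gene (horizontal axis, kb; dotted line, TSS). Squares mark a peak and triangles the 10 BCAS-only regions, which lie 939 to 47560 bp from the first TSS. At Npc1, Gusb, Npc2, Ppt1, Grn and Tfeb the peaks next to the dotted line are found in both groups. At Cln3 the region nearest to the line is the BCAS-only one at 939 bp, and Atp6v0d2 has no promoter peak.

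At Ppt1 both BCAS-only regions were intronic, 11946 and 17540 bp after the first TSS. At chr4:122848067-122848394 the peaks of BCAS 1 to 4 covered 286, 274, 309 and 314 bp and at chr4:122853614-122853976 they covered 335, 308, 293 and 336 bp, all unscaled, as are the lengths within single regions that follow. These 2 regions made up 604 of the net 615 scaled bp by which the mean of the locus differed. The rest also changed, by -139 scaled bp in the region found in all 8 libraries and by 149 in the others. At Npc2 the region chr12:84767504-84767873, in an intron 5454 bp after the TSS, held 309, 245, 209 and 261 bp, and chr12:84752151-84752513, past the end of the gene, held 361, 266, 363 and 200 bp. Together they made up 537 of the net 608 scaled bp, beside -68 in the regions found in all 8 libraries and 139 in the others. Another intronic region of Npc2, chr12:84762521-84762810, had peaks in BCAS 1, 2 and 3.

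At Grn the region chr11:102432099-102432518 in an early intron, 1917 bp after the TSS, held 319, 342, 367 and 420 bp and made up 360 of 604 scaled bp. The region chr4:19894615-19894994 in an intron of Atp6v0d2 held 323, 246, 231 and 380 bp (290 of 678 scaled bp). The next 2 regions in the same intronic stretch were also found in more BCAS than sham libraries, one in 1 sham and 3 BCAS and the other in 2 sham and 4 BCAS libraries.

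Tfeb and Npc1 had a smaller share in such regions. The Tfeb region chr17:47784437-47784809 held 284, 256, 373 and 249 bp, which was 286 of 1312 scaled bp. It lies 47560 bp after the first TSS in an intron of the long transcripts and upstream of the TSS of a shorter one. Tfeb also had a region with peaks in 3 BCAS libraries, chr17:47759699-47760333, with 617, 543 and 339 bp in BCAS 1, 2 and 3, and one in the opposite direction, chr17:47780836-47781139, found in 4 sham and 1 BCAS libraries. Of the 15 regions of this locus, 8 had more BCAS than sham libraries and 1 had more sham libraries, beside the 30.4% and 23.2% of all regions. At Npc1, the BCAS-only region in an intron 12249 bp after the TSS held 253, 222, 205 and 219 bp and made up 220 of 1018 scaled bp, and 8 of 13 regions had more BCAS than sham libraries.

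The other BCAS-only regions belonged to genes that did not pass. That in an intron of Gusb, chr5:130000762-130001109, held 339, 290, 334 and 272 bp. That in the Cln3 locus, chr7:126584529-126585110, held 388, 452, 553 and 268 bp. Regions with peaks in 3 BCAS and no sham libraries were also found in introns of Lamp2 (chrX:38439700-38439986), Atp6v1a (chr16:44119779-44120093) and Mitf (chr6:97995806-97996104). Mitf, the longest of the 31 loci, held 29 regions, of which 13 had more BCAS and 6 more sham libraries. Of all regions, 30.4% had more BCAS and 23.2% more sham libraries.

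The sequences of the BCAS-only regions are shown because they carry most of the difference at Ppt1 and Npc2 and are the places at which the groups differ in the presence of a peak. Each is the 201 bases of GRCm38 around the median summit of its peaks, plus strand, cut at the start of Apobr in the Cln3 locus to 164 bases, and the region of Npc1 is not shown. Capitals mark the letters GAGGAAGT, known as a site of PU.1, the factor of myeloid cells that microglia require, and CACGTG with its CLEAR extensions, on either strand.
Cln3, chr7:126584778-126584941: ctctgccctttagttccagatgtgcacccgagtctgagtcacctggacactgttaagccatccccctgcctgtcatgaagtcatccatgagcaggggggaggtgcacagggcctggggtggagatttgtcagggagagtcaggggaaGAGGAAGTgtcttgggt
Gusb, chr5:130000844-130001044: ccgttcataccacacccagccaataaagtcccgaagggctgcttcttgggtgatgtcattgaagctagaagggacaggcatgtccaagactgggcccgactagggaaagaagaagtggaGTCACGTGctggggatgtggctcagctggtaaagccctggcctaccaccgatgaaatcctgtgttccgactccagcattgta
Npc2, chr12:84752224-84752424: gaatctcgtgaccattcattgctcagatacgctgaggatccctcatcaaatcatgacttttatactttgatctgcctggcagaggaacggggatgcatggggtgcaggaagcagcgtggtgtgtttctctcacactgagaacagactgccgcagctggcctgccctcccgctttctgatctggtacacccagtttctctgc
Npc2, chr12:84767598-84767798: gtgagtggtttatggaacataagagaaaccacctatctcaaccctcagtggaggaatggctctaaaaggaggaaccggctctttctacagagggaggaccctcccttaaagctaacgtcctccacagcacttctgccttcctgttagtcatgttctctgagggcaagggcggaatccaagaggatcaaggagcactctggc
Ppt1, chr4:122848088-122848288: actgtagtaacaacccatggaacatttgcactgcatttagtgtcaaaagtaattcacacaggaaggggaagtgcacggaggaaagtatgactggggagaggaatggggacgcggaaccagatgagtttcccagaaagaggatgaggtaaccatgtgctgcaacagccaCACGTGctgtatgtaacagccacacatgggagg
Ppt1, chr4:122853682-122853882: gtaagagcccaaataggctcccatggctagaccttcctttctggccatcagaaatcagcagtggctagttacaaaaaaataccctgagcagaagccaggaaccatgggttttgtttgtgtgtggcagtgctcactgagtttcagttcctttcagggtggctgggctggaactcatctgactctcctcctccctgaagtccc
Grn, chr11:102432132-102432332: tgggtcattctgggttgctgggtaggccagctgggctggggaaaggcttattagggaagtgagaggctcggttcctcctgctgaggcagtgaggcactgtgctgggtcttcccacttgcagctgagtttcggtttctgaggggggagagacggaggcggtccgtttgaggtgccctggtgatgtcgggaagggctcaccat
Atp6v0d2, chr4:19894705-19894905: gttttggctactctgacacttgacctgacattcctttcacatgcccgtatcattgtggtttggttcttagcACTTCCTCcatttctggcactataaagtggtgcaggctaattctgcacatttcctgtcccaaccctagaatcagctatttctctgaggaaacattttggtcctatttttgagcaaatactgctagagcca
Tfeb, chr17:47784490-47784690: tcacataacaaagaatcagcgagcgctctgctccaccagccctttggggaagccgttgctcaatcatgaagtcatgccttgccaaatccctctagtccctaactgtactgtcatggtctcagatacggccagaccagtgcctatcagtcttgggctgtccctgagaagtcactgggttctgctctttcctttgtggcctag

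Of the 10 BCAS-only regions 3 held GAGGAAGT in this window (in the loci of Npc1, Cln3 and Atp6v0d2), compared with 500 of the 3206 BCAS-only regions of the genome (15.6%) and 2.89% of all regions. Of the 79 regions of these loci found in all 8 libraries 4 did (5.06%). GTCACGTG was found in 1 of the 10, that of Gusb, compared with 25 of the 3206 BCAS-only regions of the genome (0.780%). It was in 7 of the 79 (8.86%), against 0.577% of all regions. TCACGTGA was found in 0 of the 10, against 0.312% of the 3206, and in 4 of the 79 (5.06%), against 0.215% of all regions. Of the 79, 31 were promoter regions, and the letters of some promoters were already printed above. The 79 were not compared with the regions of the genome found in all 8 libraries. Among the 10, CACGTG alone was also found in a region of Ppt1. With 10 regions these counts are a description, and a missing match says only that these letters are not in the window.

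A wider set of 120 lysosomal genes outside the 31, of which 118 were tested, was examined next. Of these, 9 loci rose (7.63%) and 0 fell by limma, against 3.15% and 0.376% of all tested loci. Before adjustment, 23 were higher and 1 lower, against the 10.6% and 4.40% of all tested genes given above. Their median log2 difference was 0.06, and it was positive at 77 of the 118. Of 32 tested hydrolases and their activators 4 rose, of 25 membrane proteins and transporters 4, and of 25 genes of lysosomal signaling 1. Of 18 genes of sorting to the lysosome 0 passed, and of 18 other V-ATPase genes 0 (3 and 1 were higher at an unadjusted p under 0.05). In lists of 18 genes a count of 0 has little weight, since only 3.15% of all tested loci rose.

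The hydrolases that rose were 3 cathepsins and an activator. Ctsd, cathepsin D, held 647, 539, 721 and 925 bp in sham and 1953, 1480, 1915 and 1580 bp in BCAS, far apart (log2 difference 1.10, SE 0.15, limma adjusted p = 5.05e-04). In promoter windows alone its value was -0.17. Ctss, cathepsin S, a protease of antigen-presenting cells, was listed at 0 bp in sham 1 and held 299, 206 and 361 bp in the other sham libraries and 680, 625, 675 and 611 bp in BCAS (1.13, SE 0.28, adjusted p = 0.0310). Ctsz, cathepsin Z, held 807 ± 244 bp in sham and 1531 ± 142 bp in BCAS (0.81, SE 0.16, adjusted p = 0.00706). Gm2a, an activator protein of ganglioside breakdown, held 1220 ± 181 and 1819 ± 162 bp (0.51, SE 0.12, adjusted p = 0.0286).

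Among the membrane proteins, the nucleoside transporter Slc29a3 held 1551 ± 442 bp in sham and 2928 ± 362 bp in BCAS (log2 difference 0.86, SE 0.15, limma adjusted p = 0.00429). Laptm5, a membrane protein of blood cells and microglia, held 541 ± 159 and 1036 ± 201 bp (0.75, SE 0.18, adjusted p = 0.0264), and the metal transporter Slc11a1, known from macrophages, 1065 ± 149 and 1689 ± 362 bp (0.57, SE 0.15, adjusted p = 0.0392). The cation channel Tpcn2 held 4085 ± 534 and 5537 ± 504 bp (0.43, SE 0.11, adjusted p = 0.0317). The gene of lysosomal signaling that rose was Rptor, a subunit of the nutrient-sensing kinase complex on the lysosome, with 8172 ± 562 and 10152 ± 748 bp (0.31, SE 0.08, adjusted p = 0.0394). Ctsd, Ctsz and Slc29a3 passed without any single library (highest adjusted p = 0.0280), while the other 6 calls each rested on several libraries. By limma, Ctss did not pass without any one of the 4 BCAS libraries or sham 3 (adjusted p = 0.0596 to 0.101), nor Gm2a without BCAS 2, 3 or 4 or sham 2 or 3 (0.0689 to 0.105). Laptm5 did not pass without BCAS 2 or 3 or sham 1 or 2 (adjusted p = 0.0586 to 0.103), nor Tpcn2 without BCAS 2, 3 or 4 or sham 2 or 3 (0.0718 to 0.110). Slc11a1 did not pass without BCAS 2, 3 or 4 or sham 1, 2 or 3 (adjusted p = 0.0532 to 0.151), nor Rptor without any library but sham 4 (0.0521 to 0.131).

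Other settings also ended calls of these 9 genes. With the GC content of peaks as a covariate only Ctsd passed by limma, and Ctsz (0.65, adjusted p = 0.0640) and Slc29a3 (0.79, adjusted p = 0.0882) did not. Ctsd did not pass in the gene body alone (0.29, adjusted p = 0.594) or with lists of equal length (0.70, adjusted p = 0.104).

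Summed coverage of some lists of cell type markers was also higher in BCAS. Whether the markers varied together with the lysosomal loci was not tested. The loci of 15 markers of microglia together held 21902 to 28159 bp in sham and 28734 to 31584 bp in BCAS libraries, without overlap, and 3 of the 15 loci rose and 0 fell by limma, with 7 and 0 before adjustment. The 3 were Itgam, listed at 0 bp in sham 1, 2 and 4 and at 219 bp in sham 3 and with 529 to 1387 bp in BCAS, the receptor gene Trem2, with 750 ± 151 and 1322 ± 243 bp, and Gpr34, listed at 0 bp in sham 1 and 4. Trem2 did not pass without BCAS 2, BCAS 3 or sham 2 (limma adjusted p = 0.0561 to 0.0772), nor with the GC content of peaks as a covariate (adjusted p = 0.0944). No microglial marker was at 0 in every library. The 8 markers of endothelial cells held 10570 to 13376 and 14729 to 17380 bp and the 9 of lymphocytes 970 to 1716 and 2289 to 2341 bp, with 5 of the latter, among them Cd8a and Nkg7, at 0 everywhere. Of the 9 lymphocyte loci only 2, Cd4 and Cd79a, held enough coverage to be tested. Cd4 overlapped between groups (419 to 1139 bp in sham and 959 to 1411 bp in BCAS), and Cd79a did not (449 to 577 and 687 to 971 bp). No tested locus of either list passed (3 and 2 higher at an unadjusted p under 0.05 by limma). The sums of border macrophage and monocyte markers (5227 to 6655 and 5228 to 6133 bp, with Ms4a7 and Ly6c2 at 0), astrocytes (20489 to 23449 and 21645 to 25060 bp), oligodendrocytes (17684 to 23032 and 18815 to 21035 bp), excitatory neurons (25369 to 29625 and 25264 to 27382 bp) and inhibitory neurons (4552 to 6312 and 4008 to 5918 bp, with Sst at 0) overlapped between groups, with 0 loci passing in any of them (1 inhibitory marker was lower at an unadjusted p under 0.05). Only 4 of the 9 border macrophage and monocyte loci were tested, as were 7 of 8 excitatory and 6 of 8 inhibitory loci. The part of cell composition in the differences at the lysosomal loci was not tested.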

How the data were processed

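ATAC-seq of mouse cortex was measured in 4 sham and 4 BCAS libraries, grouped by sample title. Per the labels and methods, read quality was examined with FastQC and adapters were removed with Trim Galore before alignment to mm10 (Bowtie2 2.3.4.3, SAMtools 1.9). The authors then ran MACS2 on each library, with options that the sources used here do not give. The deposited peak positions, summits and -log10 q values were used, the last only for ranks within a library and a threshold of 5, and the score, fold, signal and -log10 p columns were not. By the study's sequencing table BCAS libraries had more reads on average, so depth and group are partly confounded.

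Genes came from GENCODE vM21 (basic). Covered lengths were computed in Python 3.11.15 (numpy 2.4.6, pandas 2.3.3, pysam 0.24.0, matplotlib 3.10.9). Loci whose mean reached 200 bp were tested with limma 3.58.1 in R 4.3.3 with a variance trend. Peaks were merged into regions at 1 bp of overlap. The log2 difference was printed for members that passed, for the 10 with the largest absolute t, and for genes of the wider lists that passed without overlap. The log2(bp + 200) scale understates changes of short lengths, and p-values measure the spread between these mice. Members and lists were chosen with earlier results of these data known.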

Additional observations from a re-analysis of the deposited data

Results flagged for a closer look

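Over the 62 groups of 4 libraries (31 loci, sham and BCAS), 4 covered lengths stood apart from the other 3 of their group by Dixon's ratio (95% critical value for 4 samples), where chance gives about 1 group in 20. They concern Gusb in BCAS 3 (1173 bp, against 940 to 968 in the other BCAS libraries), Man2b1 in sham 1 (1173 bp, against 560 to 639), Sgsh in sham 2 (943 bp, against 681 to 720) and Sgsh in BCAS 1 (693 bp, against 926 to 964). None of these loci passed the test between groups.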

How the results depend on the processing

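Against 6 members, 536 genes higher and 64 genes lower, the GC content of peaks as a covariate gave 0, 196 and 16, no scaling 2, 222 and 1, the number of peaks per locus 3, 242 and 32, and promoter windows 1, 149 and 1. With the log2 number of peaks per library as a covariate 5 members passed. Scaling to loci covered in every library gave 348 genes higher and 24 lower. Leaving out single libraries gave 0 to 5 members, 298 to 662 genes higher and 25 to 91 lower. It gave 10 to 13 regions of member loci that were BCAS-only and 0 to 2 that were sham-only (2 without BCAS 1). No alternative gave a member that fell. Reversed values were those of Npc2 (-0.011), Ppt1 (-0.18) and Ctsd (-0.17) in promoter windows and Trem2 (-0.11) with 10 kb on each side. Of the 219 log2 differences of the 10 printed members under alternatives, 156 kept direction and call, 59 lost and 2 gained the call (both Cln3) and 2 reversed. Of the other 21 members, 18 changed sign under at least 1 alternative and 0 passed. The cause of these changes was not tested. Deviations of libraries with the same number from their group means were only weakly correlated (r = -0.159, -0.011, -0.097 and 0.138). The labels do not say whether the numbers pair mice or mark a batch, and these values cannot decide it. With a replicate block, 6 members passed, the same 6. It gave 777 genes higher and 160 lower, more than the 536 and 64 without it.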
